A study of Homo sapiens with 24 samples.

Results

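Dox750 is a derivative of the human B cell line Ramos that grows in 750 nM doxorubicin. Ramos was established from a Burkitt lymphoma, which arises from B cells of the germinal centre. The comparison described here sets the 4 Dox750 arrays against the 4 arrays of parental Ramos and takes in every probe detected (detection p under 0.01) on 3 or more arrays of either line. These were 14962 of the 47323 probes on the Illumina bead array (31.6%). Of them 13208 were detected in both lines, 652 in Dox750 only and 1102 in Ramos only. A single gene symbol was carried by 11951 of these probes, and 3011 were tested but not named. Reading each gene from its brightest probe gave 9154 genes, of which 8281 were detected in both lines, 393 in Dox750 only and 480 in Ramos only.

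The series holds 6 lines, Ramos and the Dox100, Dox250, Dox500, Dox750 and Dox1000 lines, which grow in 100, 250, 500, 750 and 1000 nM of the drug. They form 1 lineage, so Dox750 was raised from Dox500 and Dox1000 from Dox750. All lines grew in RPMI medium with fetal bovine serum. Dox750 was harvested with doxorubicin in its medium and Ramos without it, so that a standing effect of the drug and a lasting change in the cells cannot be told apart. Each line was sampled as 4 cultures split from a single culture, so the p-values reflect no more than the spread among split cultures, which may be technical. No second derivation of a 750 nM line was sampled. Whether the lines are single clones is not given in the sources used here.

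On the 8 arrays the median raw signal ran from 144.2 to 163.4 and 14158 to 15181 probes were detected. Correlations of log2 signals ran from 0.991 to 0.994 within a line and from 0.952 to 0.957 between Dox750 and Ramos. Precision is limited by the number of arrays. Levels are normalized log2 signals, on which 1 unit is a 2-fold step, and differences are Dox750 minus Ramos ± SE from limma (n = 4 per line), with p-values adjusted over all 15765 probes fitted. The threshold for passing was an adjusted p under 0.05. Where only some arrays of a line detected a gene, their number is given and the difference uses the signals of all 4. Levels of different genes come from different probes and were not set against each other. Non-overlap of arrays is described for genes mostly chosen by size of change or by detection, and its share over all genes is not given here.

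Doxorubicin, an anthracycline, holds topoisomerase II in its DNA-cleaving state and so leaves double-strand breaks. P-glycoprotein, the product of ABCB1, is a membrane pump that exports anthracyclines and many other drugs, and its gain is a well known route to multidrug resistance. Type I interferon signalling works through a complex of transcription factors that includes IRF9 and binds the interferon-stimulated response element in the promoters of antiviral genes. The integrated stress response works through the factor ATF4, which is made when amino acids run short or proteins misfold, and which binds the amino acid response element in genes of amino acid uptake and synthesis.

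Promoters of 4 interferon-induced genes are shown because all 4 were higher in Dox750 than in Ramos and Dox500, as described below. Each stretch lies upstream of the transcription start in the RefSeq annotation of GRCh38.p14 and is written 5′ to 3′ on the gene's strand, with capitals marking matches to GAAA and GAAA with any 2 bases between, the core of the interferon-stimulated response element, on either strand.
IFIT1 (chr10:89392483-89392552, plus strand): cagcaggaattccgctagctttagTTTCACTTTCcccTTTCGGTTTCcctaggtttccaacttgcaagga
IFIT3 (chr10:89327817-89327896, plus strand): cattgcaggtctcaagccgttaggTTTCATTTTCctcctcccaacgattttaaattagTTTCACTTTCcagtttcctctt
ISG15 (chr1:1013357-1013426, plus strand): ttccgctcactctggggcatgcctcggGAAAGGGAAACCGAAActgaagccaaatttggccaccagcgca
IFI6 (chr1:27672263-27672372, minus strand): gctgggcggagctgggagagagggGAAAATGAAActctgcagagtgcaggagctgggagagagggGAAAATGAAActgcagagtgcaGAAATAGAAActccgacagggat
IFIT1 and IFIT3 held 2 matches each, on the opposite strand, and the 2 matches of ISG15 overlap. IFI6 held 3 matches, 2 of them with the same letters. Among the reported interferon-stimulated genes with a promoter in the RefSeq table, the letters were found in 15 of 20 windows of 300 bases (75%), against 3.57% of all 35116 promoters and 2.81% of the 7500 promoters of reported genes. A match describes the letters of the window and was not measured as a bound site.

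For ATF4-linked genes, which were mostly lower in Dox750 than in Dox1000, capitals mark matches to TGATGNAA, the core of the amino acid response element, on either strand.
ASNS (chr7:97872449-97872498, minus strand): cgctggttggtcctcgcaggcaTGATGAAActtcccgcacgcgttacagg
ATF3 (chr1:212565197-212565246, plus strand): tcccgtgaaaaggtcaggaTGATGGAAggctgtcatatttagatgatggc
CHAC1 (chr15:40953241-40953290, plus strand): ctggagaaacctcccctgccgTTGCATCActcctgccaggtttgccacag
The letters stood in 4 of 24 promoters of the ATF4 list (16.7%), against 3.62% of all promoters and 1.73% of those of reported genes. The kappaB letters, GGGA and TTCC with any 2 bases between, on either strand, stood in 5 of 16 promoters of the NF-kB list (31.2%), against 1.61% and 1.47%.

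Of the genes measured 53.7% differed between Dox750 and Ramos, mostly by small amounts. Of the 9154 genes 2464 were higher in Dox750 (26.9%) and 2455 lower (26.8%), with a median difference of -0.01 and quartiles of -0.30 and 0.29. At least 2-fold differences were fewer, at 451 genes higher (4.93%) and 398 lower (4.35%). Among the genes detected in both lines 247 were at least 2-fold higher (2.98%) and 264 lower (3.19%). The remaining calls rest largely on genes undetected in 1 line, whose fold is only bounded. Of the 157 higher calls with no probe detected on any Ramos array, 88 had a bound of at least 2-fold, and of the 97 lower calls with none detected on any Dox750 array, 44 did. Without background correction 161 genes passed 2-fold upward and 139 downward, and all 300 were among the 849 calls given here.

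**Figure D1:**
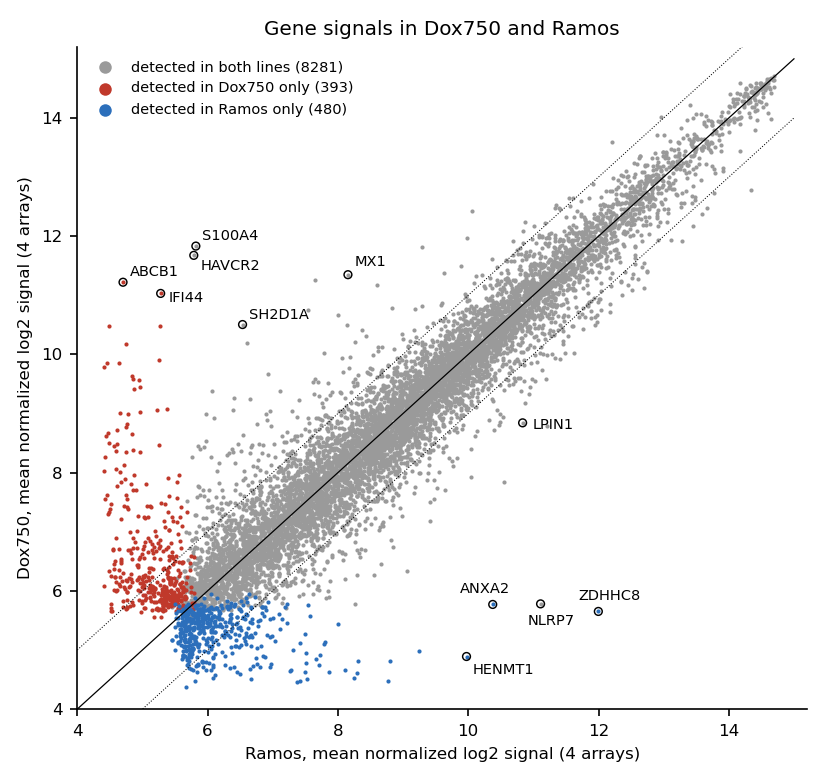
Mean normalized log2 signal of each of the 9154 genes in Ramos (horizontal) and Dox750 (vertical), 4 arrays per line, with the line of equality solid and 2-fold lines dotted. The 393 genes detected only in Dox750 rise along the left edge, led by ABCB1, and the 480 detected only in Ramos lie along the bottom.

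ABCB1 rose from no detected signal to one of the largest differences in the comparison. Its level was 5.05, 4.49, 4.73 and 4.54 on the 4 Ramos arrays, none of which detected it, and 11.14, 11.20, 11.06 and 11.48 in Dox750. The lowest Dox750 array thus lay 6 units above the highest Ramos array, and ABCB1 was at least 50.4-fold higher (adjusted p = 1.83e-19). This bound, like the other folds from dim signals, depends on the background correction: the difference of 6.52 was 4.14 without it. ABCB4, the neighbouring gene for a phospholipid transporter of bile, was at 5.32, 5.77, 5.65 and 5.38 in Ramos, where 2 of 4 arrays detected it, and at 7.57, 7.81, 8.09 and 7.89 in Dox750. Its groups did not overlap, and the difference was 2.31 ± 0.13 (adjusted p = 6.69e-13). Of the 6 efflux transporter genes reported, 4 rose and 0 fell, against 26.9% and 26.8% of all genes. ABCC4, an exporter of nucleotides and drugs, rose by 0.76 ± 0.10, and MVP, the major vault protein, by 0.43 ± 0.15 (adjusted p = 0.0182). The call for MVP was lost without Ramos replicate 3 (0.32), without Dox750 replicate 4 (0.38) and under median scaling (0.33). ABCC5 and ABCC10 stood at -0.09 and -0.01 and did not pass. ABCB9, a peptide transporter of the lysosome that sits on chromosome 12 and is not a drug pump, was higher by 3.61 ± 0.10.

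Both topoisomerase II genes were lower in Dox750, as was TDP1, while TOP1 was higher. TOP2A, the topoisomerase II of dividing cells, was at 12.36, 12.29, 12.22 and 12.42 in Ramos and at 11.56, 11.40, 11.66 and 11.65 in Dox750. Every Dox750 array lay below every Ramos array, and the difference was -0.75 ± 0.09 (adjusted p = 1.63e-07). TOP2B, its partner in resting cells, differed by -0.58 ± 0.08, and TOP1, the target of camptothecins, rose by 0.74 ± 0.10. TDP1, which removes stalled topoisomerase from DNA ends, was at 11.14, 11.60, 11.53 and 11.36 in Ramos and at 9.90, 9.91, 10.10 and 9.80 in Dox750. The arrays of the lines did not overlap (-1.48 ± 0.13, adjusted p = 3.30e-09), and the mean over its probes differed by -0.71. ALDH1A1, an aldehyde dehydrogenase, rose by 3.69 ± 0.10 from 1 detected Ramos array of 4. In all, 4 of the 9 drug target and drug metabolism genes rose and 3 fell, against 26.9% and 26.8% of all genes. Their median (0.11) changed sign to -0.04 under another scaling. Outside chromosomes 12 and 20, 3 of 8 rose and 3 fell, with a median of -0.11.

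Among genes detected in both lines, the largest rises were those of S100A4 and HAVCR2. S100A4, an EF-hand protein known from motile cells, was at 5.95, 5.91, 5.62 and 5.80 in Ramos and at 11.83, 12.02, 11.79 and 11.69 in Dox750 (6.01 ± 0.08, 64.6-fold, adjusted p = 5.59e-24). HAVCR2, which encodes the inhibitory receptor TIM-3, was at 5.75, 5.63, 5.65 and 6.12 in Ramos and at 11.60, 11.80, 11.69 and 11.61 in Dox750 (5.89 ± 0.10, 59.2-fold). Without background correction these differences were 4.36 and 4.21. In both, the lowest Dox750 array lay over 5 units above the highest Ramos array. SH2D1A, the adaptor of SLAM-family receptors, rose by 3.97 ± 0.10. NCALD, a neuronal calcium sensor, rose by 3.59 ± 0.10, the co-chaperone DNAJC12 by 3.31 ± 0.09 and the tetraspanin TSPAN13 by 3.20 ± 0.11. The next were MX1 (3.19 ± 0.16), MAP3K7CL (3.01 ± 0.11), HELZ2 (2.86 ± 0.14), the ganglioside synthase ST8SIA1 (2.83 ± 0.11) and IRF7 (2.74 ± 0.12). MX1, HELZ2 and IRF7 are induced by interferon. Among the 12 genes at the top by this rule, ABCB9 and ST8SIA1 lie on chromosome 12 and HELZ2 on chromosome 20.

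Several genes of other tissues were detected on every Dox750 array and on no Ramos array. FABP6, the bile acid carrier of the intestine, was at 4.46, 4.44, 4.61 and 4.41 in Ramos and at 10.58, 10.43, 10.54 and 10.37 in Dox750, which puts it at least 30.2-fold higher (a difference of 6.0, or 3.57 without background correction). AGR2, a disulfide isomerase of mucus-secreting epithelium, was at 4.62, 4.52, 4.86 and 4.56 against 9.95, 9.60, 9.89 and 9.97, at least 19.5-fold higher. NLRP11, an intracellular sensor of the NLR family, was at 4.83, 4.74, 4.71 and 4.68 against 10.25, 10.12, 10.17 and 10.16, at least 24.4-fold higher. The arrays of the lines did not overlap for these genes. This adds no support, since they were chosen by detection in Dox750 and not in Ramos. The heparan sulfatase SULF2 was at least 16.8-fold higher, SMCO4 at least 20.3-fold and CCDC85A at least 19.5-fold. SNCAIP, EGFR and SGK1 were chosen after their values were seen. SNCAIP, which encodes synphilin, rose by 5.21 ± 0.12 from 1 detected Ramos array. EGFR, the epidermal growth factor receptor, was at 8.42, 8.48, 8.48 and 8.54 in Dox750 and undetected in Ramos, at least 7.53-fold higher, and the kinase gene SGK1 was at least 16-fold higher.

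Among the falls were those of ZDHHC8, NLRP7 and ANXA2. ZDHHC8, a palmitoyltransferase chosen after its values were seen, was at 12.29, 11.99, 11.73 and 11.99 in Ramos and at 5.48, 5.91, 5.80 and 5.41 in Dox750, where 2 of 4 arrays detected it (-6.35 ± 0.17, adjusted p = 5.62e-19). NLRP7, another member of the NLR family, was at 11.17, 11.14, 11.14 and 10.99 in Ramos and at 5.84, 5.83, 5.85 and 5.60 in Dox750 (-5.33 ± 0.13). ANXA2, a phospholipid-binding annexin, was at 10.46, 10.37, 10.31 and 10.37 in Ramos and at 6.31, 5.66, 5.57 and 5.54 in Dox750, with 1 array detecting it (-4.61 ± 0.21). These genes went from high signals to the edge of detection. Genes detected on every Ramos array and on no Dox750 array included HENMT1, a methyltransferase of germline small RNAs (at least 20.1-fold lower), STOX2 (at least 12.2-fold), TEX30 (at least 8.90-fold) and PIGY, of glycolipid anchor synthesis (at least 8.67-fold). ADAM23, ZNF275, TESC and CMTM8 were at least 6.37-fold, 6.29-fold, 6.08-fold and 5.54-fold lower. Among genes still detected in Dox750, CENPV differed by -2.72 ± 0.15, FAIM, an inhibitor of Fas-induced death, by -2.71 ± 0.17, and RHPN2 by -2.49 ± 0.16. REPIN1 (-2.41 ± 0.10), ZNF775 (-2.24 ± 0.15) and SLC25A13 (-2.12 ± 0.10), a mitochondrial carrier, lie on chromosome 7. CPXM1, the B lineage factor SOX4, COBLL1, ARL9 and LPIN1 differed by -2.29, -2.20, -2.11, -2.03 and -1.99.

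**Figure D2:**
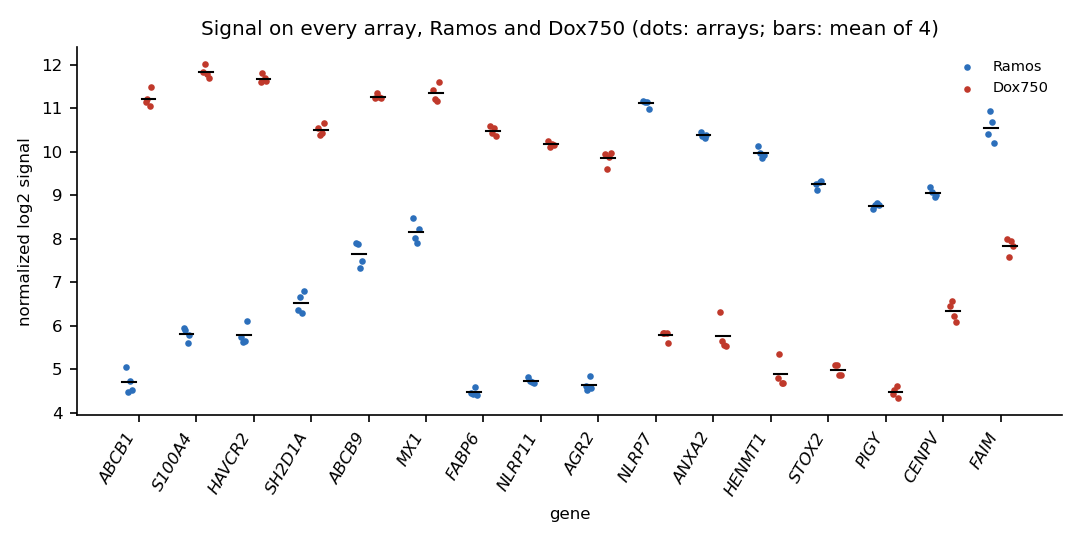
Normalized log2 signal on each of the 4 Ramos arrays (blue) and 4 Dox750 arrays (red) for 16 genes named in the text, with a bar at each mean. No array of one line overlaps those of the other for any of the 16 genes.

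Interferon-stimulated genes formed the most shifted list. Of 27 reported, 24 rose and 1 fell, with a median difference of 1.63, against 26.9% and 26.8% and a median of -0.01 over all genes. Of the 27, 8 were detected in Dox750 only with no Ramos probe detected, so that their fold is a bound, and among the 17 detected in both lines 14 rose and 1 fell, with a median of 1.01. IFIT1, a sensor of viral RNA caps, was at 4.59, 4.90, 4.84 and 4.77 in Ramos and at 9.0, 8.68, 8.89 and 9.36 in Dox750, at least 10.7-fold higher. IFI44 was at 5.18, 5.16, 5.56 and 5.22 against 11.25, 10.69, 10.83 and 11.36, at least 44.2-fold higher (adjusted p = 1.36e-17; a difference of 5.75, or 3.75 without background correction). All Dox750 arrays lay at least 3 units above the Ramos arrays for both. ISG15, a ubiquitin-like modifier, was at 8.67, 8.79, 8.34 and 8.64 against 11.28, 11.03, 11.09 and 11.32 (2.57 ± 0.11). IFI6, a mitochondrial survival factor, was at 7.90, 7.56, 7.61 and 7.70 against 9.51, 9.53, 9.37 and 9.70 (1.83 ± 0.10). IFI27 was at least 8.62-fold and EPSTI1, chosen after its values were seen, at least 9.56-fold higher. IFI44L was also higher (adjusted p = 8.10e-15). Its fold is left out, since Ramos detected another of its probes but not the one read.

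Genes that sense and relay interferon split in direction, with 10 of 21 rising and 4 falling (median 0.22), against 26.9% and 26.8% of all genes. IRF7, the inducer of interferon alpha genes, was at 6.85, 6.90, 7.01 and 6.92 in Ramos and at 9.74, 9.59, 9.54 and 9.79 in Dox750. IRF9, the DNA-binding subunit of the interferon complex, rose by 1.96 ± 0.12. The RNA sensor DHX58 was at least 1.77-fold higher, from no detected Ramos array. SOCS1, the feedback inhibitor of JAK kinases, went the other way, from 9.27, 9.01, 8.73 and 8.81 to 7.34, 7.53, 7.39 and 7.38 (-1.55 ± 0.12, adjusted p = 1.77e-10). IRF7 and IRF9 were thus higher and SOCS1 lower, with no overlap between lines. These genes were named as among the largest changes of the list, of which 7 did not pass. In Dox500 SOCS1 was at 7.13, 7.48, 7.28 and 7.14. Any bearing of these genes on the interferon-stimulated list was not tested.

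For the lists that follow, 26.9% of all genes rose and 26.8% fell. The NF-kB list had 12 of 22 genes up and 3 down (median 0.53). LTB, the membrane anchor of lymphotoxin, was at 10.21, 9.86, 9.89 and 9.95 in Ramos and at 11.87, 12.14, 11.98 and 11.87 in Dox750 (1.99 ± 0.09), and its partner LTA rose by 1.93 ± 0.13. The receptor CD40, on chromosome 20, rose by 1.74 ± 0.12, and TNF, undetected in Ramos, was at least 2.44-fold higher. Class I presentation had 13 of 17 genes up and 1 down (median 0.42). HLA-F rose by 1.27 ± 0.07, HLA-B by 1.04 ± 0.08 and the tapasin homologue TAPBPL by 0.96 ± 0.13, while the peptide trimmer ERAP2 fell by 1.20 ± 0.11. Class II presentation had 8 of 14 up and 2 down (median 0.30, or 0.25 at bounds). HLA-DQB1 was at least 1.78-fold higher, the processing protease CTSS rose by 1.08 ± 0.14, and the class II master regulator CIITA by 0.54 ± 0.17 (adjusted p = 0.0104), a call lost without Ramos replicate 3. Leaving out 1 array at a time gave 6 to 8 class II genes higher.

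Immune receptors, lysosome and adhesion genes were counted in the same way. Checkpoint and co-stimulation genes had 9 of 14 up and 1 down (median 0.84). Beside HAVCR2, its relative TIMD4, a receptor for phosphatidylserine, was at least 11.1-fold higher, from no detected Ramos array, and the SLAM-family ligand CD48 rose by 1.37 ± 0.07. Of 25 lysosome genes 17 rose and 1 fell (median 0.45). GRN, progranulin, was at 9.01, 9.06, 9.43 and 9.23 in Ramos and at 10.63, 10.89, 10.74 and 10.79 in Dox750 (1.58 ± 0.09). The protective protein CTSA rose by 1.44 ± 0.13, the calcium channel MCOLN1 by 1.34 ± 0.15 and the protease CTSZ by 1.33 ± 0.10. CTSA and CTSZ lie on chromosome 20. Of 25 adhesion genes 11 rose and 6 fell, or 9 and 9 under median scaling, with the integrin ITGB2 (1.81 ± 0.09), the chemokine receptor CXCR5 (1.66 ± 0.09) and PECAM1 (1.64 ± 0.11) higher and CD99 at least 1.73-fold lower. Among 14 NLR and inflammasome genes 8 rose and 4 fell, with NLRP4 at least 9.22-fold and the cytokine IL1B at least 3.75-fold higher beside NLRP11 and NLRP7. Outside chromosomes 12 and 20, 21 of 24 interferon-stimulated, 11 of 21 NF-kB, 15 of 23 lysosome and 7 of 12 checkpoint genes rose.

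**Figure D3:**
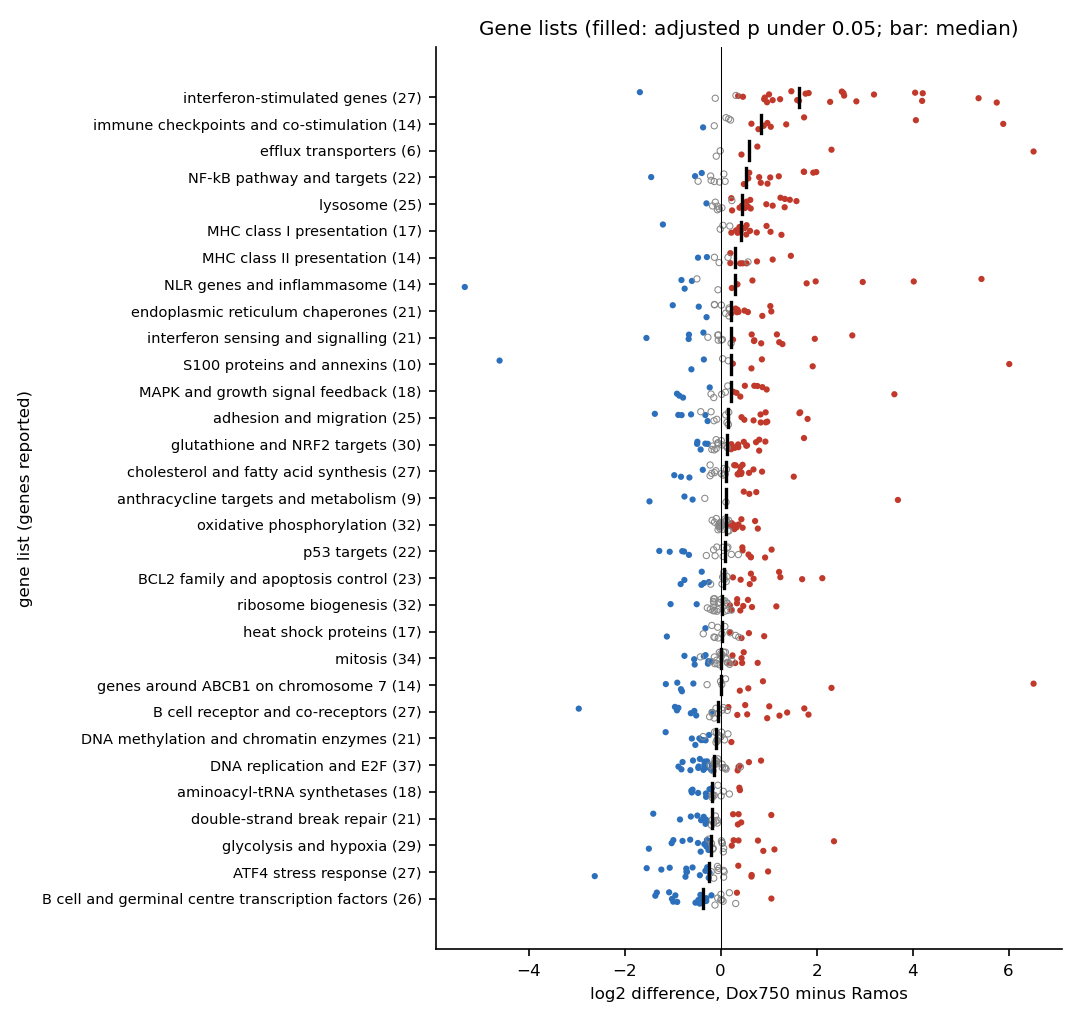
Log2 difference, Dox750 minus Ramos, of each reported member of 31 gene lists, with filled points for an adjusted p under 0.05 and a bar at the list's median. The interferon-stimulated list lies highest (median 1.63) and the B cell transcription factors lowest (median -0.36).

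ATF4-linked genes were mostly lower than in Ramos. Of 27 reported 15 fell and 4 rose (median -0.25). SLC38A2, an amino acid transporter that ATF4 induces, was at 7.42, 7.08, 7.17 and 7.36 in Ramos and undetected in Dox750, at least 3.06-fold lower. The secreted glycoprotein STC2 was at 8.64, 8.63, 8.70 and 8.73 against 7.22, 7.01, 7.21 and 7.09 (-1.54 ± 0.11), and DDIT4, an inhibitor of mTOR, at 8.41, 8.60, 8.18 and 8.50 against 7.0, 7.46, 7.24 and 7.05 (-1.24 ± 0.17). All Dox750 arrays lay below all Ramos arrays for these genes. SESN2 differed by -1.06 ± 0.17, asparagine synthetase (ASNS, chosen for its promoter after the values were seen) by -0.72 ± 0.08 and the glutathione-degrading enzyme CHAC1 by -0.71 ± 0.17. The factor ATF3 was 1 of the 4 that rose (0.64 ± 0.13), and the highest difference on the list was 0.99. Aminoacyl-tRNA synthetases, which ATF4 also induces, fell in 8 of 18 cases and rose in 2 (median -0.18), among them FARSB, GARS1 and SARS1 at -0.61, -0.60 and -0.59. Endoplasmic reticulum chaperones rose in 11 of 21 cases and fell in 3 (median 0.22). HSPA5, the chaperone BiP, rose by 1.05 ± 0.09 and its partner HSP90B1 by 1.03 ± 0.07, while EDEM1, of misfolded protein disposal, differed by -1.0 ± 0.09.

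Transcription factors of the B cell programme were lower, while B cell surface genes were mixed. Of 26 factors 16 fell and 2 rose, with a median of -0.36, the lowest of the lists. EBF1, which commits cells to the B lineage, was at 8.29, 8.35, 8.47 and 8.54 in Ramos and at 7.01, 6.94, 6.91 and 7.34 in Dox750 (-1.36 ± 0.13). MEF2C differed by -1.33 ± 0.19, BACH2 by -1.07 ± 0.08, the coactivator POU2AF1 by -1.01 ± 0.07 and IRF4 by -0.91 ± 0.09. ID2, which blocks E-protein factors, was 1 of the 2 that rose (1.06 ± 0.11). MYC, which the Burkitt translocation drives, was at 12.44, 12.45, 12.55 and 12.48 in Ramos and at 12.40, 12.43, 12.26 and 12.36 in Dox750, and did not pass (-0.12 ± 0.08, adjusted p = 0.249). Of 27 genes of the B cell receptor and its partners 10 rose and 8 fell. PRKCB, the kinase that links the receptor to NF-kB, was at 7.41, 7.32, 7.45 and 7.51 in Ramos and undetected in Dox750, at least 3.43-fold lower. The inhibitory phosphatase PTPN6, on chromosome 12, rose by 1.74 ± 0.12. The surrogate light chain genes VPREB1 and VPREB3 rose by 1.83 ± 0.16 and 1.39 ± 0.06. Their products pair with the heavy chain in precursor B cells.

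The labels of both lines were checked against defining B cell markers. MS4A1 (CD20), CD79A, CD79B, CD22, MME (CD10), CD38 and BCL6 were detected on 4 of 4 arrays of both lines, 9 of 10 markers on the array in all, and PAX5 on none. Of the 9, 3 rose, 4 fell and 2 did not pass (median -0.09). MS4A1 rose by 1.01 ± 0.10, CD79B by 0.55 ± 0.07 and CD79A by 0.35 ± 0.07. EBF1 and POU2AF1, given above, fell, as did CD22 (-0.55) and BCL6 (-0.30), while MME (-0.09) and CD38 (0.11) did not pass. T and NK cell markers were detected on 3 or more arrays for 0 of 11 genes in Ramos and 2 of 11 in Dox750. These were PRF1 (at least 2.19-fold higher) and NKG7 (at least 1.21-fold). On fewer arrays, CD3E was detected on 2 and CD3G on 1 of the Dox750 arrays, and CD2 on 2 Ramos arrays. CD3D, CD4 and CD8A were undetected on all 8 arrays. The summed signal of the 11 genes ran from 475.9 to 505.6 in Ramos and from 581.1 to 709.2 in Dox750. The summed myeloid signal ran from 759.5 to 805.6 and from 748.8 to 818.2, with CD14, CSF1R and MPO undetected on all 8 arrays. LYZ had a probe detected on 1 Dox750 array and none on a Ramos array. CST3, on chromosome 20, was higher by at least 2.24-fold and FCGR3A differed by -1.0 with 1 of 4 Dox750 arrays detecting it. Of 8 epithelial and stromal markers 1 was detected in Ramos and 2 in Dox750, DCN being at least 1.92-fold higher and EPCAM, KRT19 and COL1A1 undetected. KRT8 and KRT18 each had a probe detected on 1 Dox750 array and none on a Ramos array. The 5 plasma cell markers gave 4 detected in each line, with summed signals of 15990 to 16430 and 18410 to 19320.

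Growth, repair and metabolic lists were read beside 26.9% of all genes up and 26.8% down. In DNA replication 16 of 37 genes fell and 5 rose (median -0.14), with the ligase LIG1 at -0.88 ± 0.13 and GINS3, a helicase subunit, at 0.84 ± 0.09. In double-strand break repair 9 of 21 fell and 5 rose (median -0.18). The recombination factor XRCC2, on chromosome 7, was at 10.93, 11.11, 11.18 and 11.32 in Ramos and at 9.57, 9.50, 9.92 and 9.94 in Dox750 (-1.40 ± 0.11), while the ubiquitin ligase RNF8 rose by 1.06 ± 0.10. Mitotic genes split evenly, with 7 of 34 rising and 8 falling, and their median (0.01) changed sign under another scaling. Of 21 chromatin enzymes 8 fell and 1 rose, with the acetyltransferase EP300 at -1.15 ± 0.11 and EZH2 at -0.44 ± 0.07. In ribosome biogenesis 9 of 32 rose and 2 fell, but under median scaling 8 fell, and the median (0.03) changed sign. NOLC1, a nucleolar chaperone, was at 9.62, 9.66, 9.69 and 9.56 in Ramos and at 8.48, 8.62, 8.64 and 8.61 in Dox750 (-1.04 ± 0.09).

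Among genes of cell death 9 of 23 of the BCL2 family and its partners rose and 6 fell, with a median (0.08) that changed sign under another scaling. Members that rose lay on both sides of survival. BMF (2.12 ± 0.18), BCL2L11 (1.70 ± 0.11) and HRK (1.24 ± 0.15, on chromosome 12) promote apoptosis, and BCL2, detected on 1 of 4 Ramos arrays, opposes it (1.22 ± 0.16). Of 22 p53 targets 7 rose and 5 fell, near the shares over all genes, with a median of 0.09 that became -0.05 under median scaling. The death receptor FAS was at least 1.41-fold higher, and ZMAT3 differed by -1.28 ± 0.09, or by -0.49 as the mean over its probes. Of 18 genes of growth signal feedback 9 rose and 4 fell. SPRED1, an inhibitor of RAS signalling, was at 4.35, 4.41, 4.43 and 4.44 in Ramos, with no array detecting it, and at 8.20, 7.94, 8.02 and 7.94 in Dox750, at least 5.51-fold higher. Of 30 glutathione and NRF2 genes 14 rose and 5 fell (median 0.12), led by MGST1, a membrane glutathione transferase on chromosome 12 (1.74 ± 0.09). Of 29 glycolysis and hypoxia genes 13 fell and 7 rose (median -0.19), with the oxygen sensor EGLN1 at -1.50 ± 0.20 and the glucose transporter SLC2A3 at least 3.64-fold higher. Oxidative phosphorylation had 11 of 32 up and 0 down, but 6 up under median scaling, and UQCRB and NDUFA9 rose by 0.77 and 0.72. Cholesterol and fatty acid synthesis had 13 of 27 up and 4 down, with the sterol exporter ABCG1 at 1.52 ± 0.08, although its other probe differed in sign.

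Genes of chromosomes 7, 12 and 20 differed from the rest as blocks. On chromosome 12, 340 of 512 genes were higher and 31 lower, with a median of 0.47, and on chromosome 20, 183 of 268 were higher and 18 lower, with a median of 0.46. On chromosome 7, 223 of 453 were lower and 76 higher, with a median of -0.24. Medians of the other chromosomes ran from -0.11 to 0.04. By gene order in GRCh38.p14, each chromosome was divided into 8 parts of equal gene number. All 8 parts of chromosome 12 had medians of 0.37 to 0.54 and the first 7 parts of chromosome 20 medians of 0.39 to 0.67, while its last part stood at 0.14. These shifts are not particular to Dox750. In Dox100, against the same Ramos arrays, the same parts had medians of 0.34 to 0.55 and 0.39 to 0.55. Between Dox750 and Dox500 the medians of chromosomes 12 and 20 were 0.003 and -0.05. Of the 160 parts of the other chromosomes 4 had a median beyond 0.3 in either direction, the lowest being -0.49 (the first 20 genes of chromosome 13).

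Medians differed along chromosome 7. Its first 4 parts had medians of -0.06, -0.18, -0.04 and 0.03, and the last 4 of -0.65, -0.44, -0.33 and -0.53. In the 5th part, from CDK14 to TSC22D4, 46 of 57 genes were lower and 5 higher. The reported genes around ABCB1 were named after their values were seen. The nearest before it in chromosome order, from ELAPOR2 on, did not pass or rose, with TMEM243, CROT and DMTF1 at 0.10, 0.02 and within 0.01 of 0 and ELAPOR2 at 0.88. SEMA3E, the gene before ELAPOR2, stood at -1.40. After ABCB1, as far as CDK6, more genes fell than rose. SLC25A40 stood at -0.83, SRI at -0.57, CDK14 at -0.90, GATAD1 at -0.81 and the cell cycle kinase CDK6 at -1.14 ± 0.08. ANKIB1, RBM48 and FAM133B were also lower, at -0.76, -0.54 and -0.71. STEAP1 (0.58) and CYP51A1 (0.40, lost under median scaling and on leaving out any 1 of 5 of the arrays) rose in the same stretch, and DBF4 (-0.28), GTPBP10 (-0.09), CLDN12 (-0.20) and MTERF1 (-0.11) did not pass. The mitochondrial protein gene CHCHD3, further along and chosen after its values were seen, was at 10.79, 10.96, 10.87 and 10.84 in Ramos and at 9.19, 9.11, 9.13 and 9.25 in Dox750 (-1.69 ± 0.08). REPIN1, ZNF775, SLC25A13 and XRCC2 lie in the same 4 parts.

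The other lines, compared with the same Ramos arrays, gave the following medians. For the 5th to 7th parts of chromosome 7 they were -0.09, 0.01 and 0.06 in Dox100, -0.56, -0.50 and -0.38 in Dox250, -0.58, -0.54 and -0.29 in Dox500 and -0.52, -0.50 and -0.36 in Dox1000. For the last part they were -0.12 in Dox100, -0.14 in Dox250, -0.55 in Dox500, -0.53 in Dox750 and -0.62 in Dox1000. The last part thus stood below -0.5 in Dox500, Dox750 and Dox1000, and the 5th and 6th parts were also low in Dox250, where ABCB1 was at 9.56, 9.59, 9.62 and 9.61. These are descriptions over genes, which share arrays and are not replicates.

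**Figure D4:**
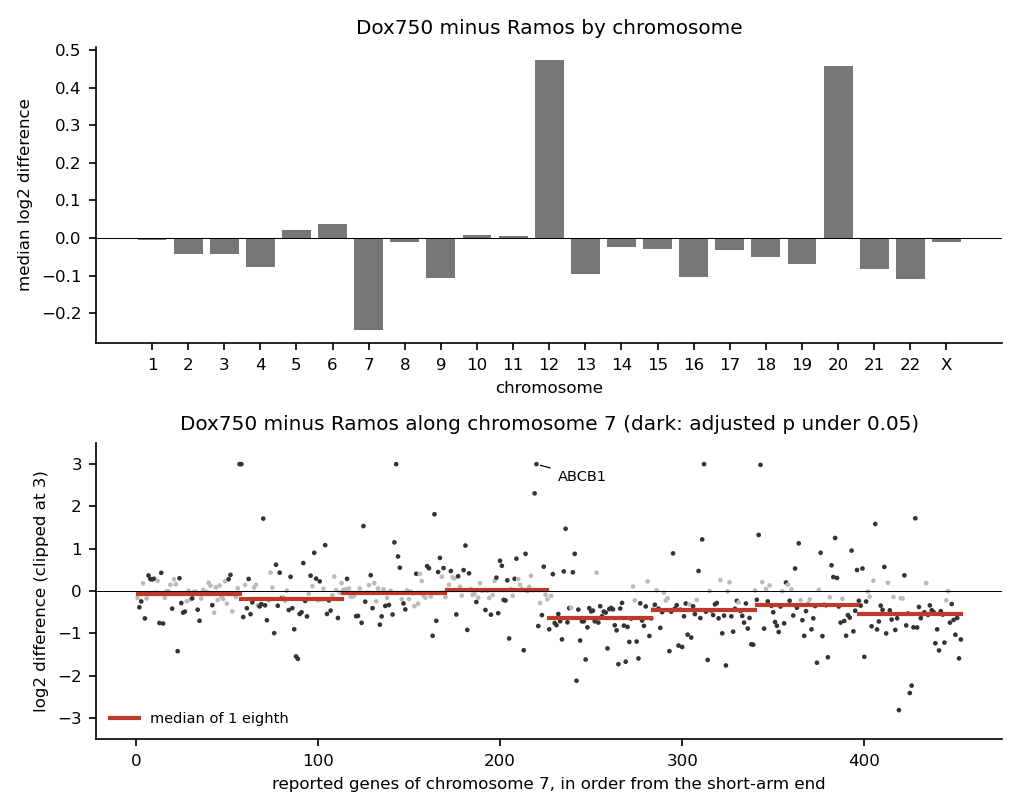
Top, median log2 difference (Dox750 minus Ramos) of the reported genes of each chromosome, with chromosomes 12 and 20 at 0.47 and 0.46 and chromosome 7 at -0.24. Bottom, each of the 453 genes of chromosome 7 in order, with values clipped at 3, dark points for an adjusted p under 0.05 and red bars at the median of each of the 8 parts, of which the last 4 lie below the first 4.

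Dox750 was next compared with Dox500, the line from which it was raised. Ramos is not a side of this difference, but its arrays entered the fit and the choice of genes. Of the 9154 genes detected in Dox750 or Ramos, 366 were higher than in Dox500 (4%) and 369 lower (4.03%). At least 2-fold, 30 were higher (0.328%) and 1 lower (0.0109%). Genes detected in Dox500 but in neither Dox750 nor Ramos were not counted, which can tilt this split upward. Interferon-stimulated genes were mostly higher. Of the 27 reported, 20 were above Dox500 and 0 below, with a median of 0.79 against -0.01 for all genes. Against Dox1000 the same list was close to level, with 6 above and 2 below and a median of 0.10. There 12.1% of all genes were higher and 11.7% lower, and leaving out 1 array at a time gave 1 to 6 list members higher. IFIT1 was at 6.76, 6.79, 5.97 and 6.55 in Dox500, below all Dox750 arrays (2.46 ± 0.19, adjusted p = 2.56e-08). IFI6 was at 7.75, 7.79, 7.49 and 7.85 in Dox500, where it had fallen back to the Ramos range, and stood 1.81 ± 0.10 higher in Dox750. IFIT3 stood 2.41 ± 0.19 and IFI44 1.42 ± 0.18 higher. PCP4, a calmodulin regulator, was higher by 1.48 ± 0.11, and MHC class I genes by 7 of 17, with 1 lower. NYNRIN was the gene at least 2-fold lower (-1.04 ± 0.11), and it was not past 2-fold without background correction or under median scaling. ABCB1 did not pass against Dox500 (-0.10 ± 0.16, adjusted p = 0.764), while ABCB4 was higher by 0.85 ± 0.13.

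Against Dox1000, the line raised from it, Dox750 had 1104 genes higher (12.1%) and 1070 lower (11.7%), of which 8 (0.0874%) and 52 (0.568%) were at least 2-fold. Here too, genes detected in neither Dox750 nor Ramos were not counted. The lower genes were led by ATF4-linked ones, with 21 of 27 below Dox1000 and 1 above (median -0.51). STC2 was at 9.66, 9.21, 9.64 and 9.52 in Dox1000, all above every Dox750 array (-2.37 ± 0.11, adjusted p = 3.11e-12). CHAC1 was at 8.13, 7.80, 8.54 and 8.25 (-2.29 ± 0.17), and DDIT4 and ATF3 both differed by -1.83. INHBE, an activin subunit gene, was at 11.43, 10.91, 11.44 and 11.46 in Dox1000 and at 8.82, 8.77, 9.04 and 8.85 in Dox750 (-2.44 ± 0.11). For STC2, CHAC1 and DDIT4, Dox750 thus lay below Ramos and Dox1000 above all Dox750 arrays. ABCB1 did not pass (-0.14 ± 0.16), and ABCB4 differed from Dox1000 by -0.95 ± 0.13.

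Ribosome biogenesis genes differed the other way, with 29 of 32 above Dox1000 and 0 below (median 0.43, against 0.02 for all genes). POP1, a subunit of RNase P and MRP, was at 7.04, 7.39, 7.14 and 7.43 in Dox1000 and at 8.25, 8.24, 8.42 and 8.53 in Dox750 (1.11 ± 0.10). MYBBP1A, a nucleolar repressor, was 1.18 ± 0.17 higher, and NOLC1 0.57 ± 0.09. Of 17 heat shock proteins 12 were above Dox1000 and 0 below. Against Ramos the same 2 lists had medians of 0.03 and 0.03, with members in both directions, and both medians were below 0 under median scaling (-0.06 and -0.11).

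**Figure D5:**
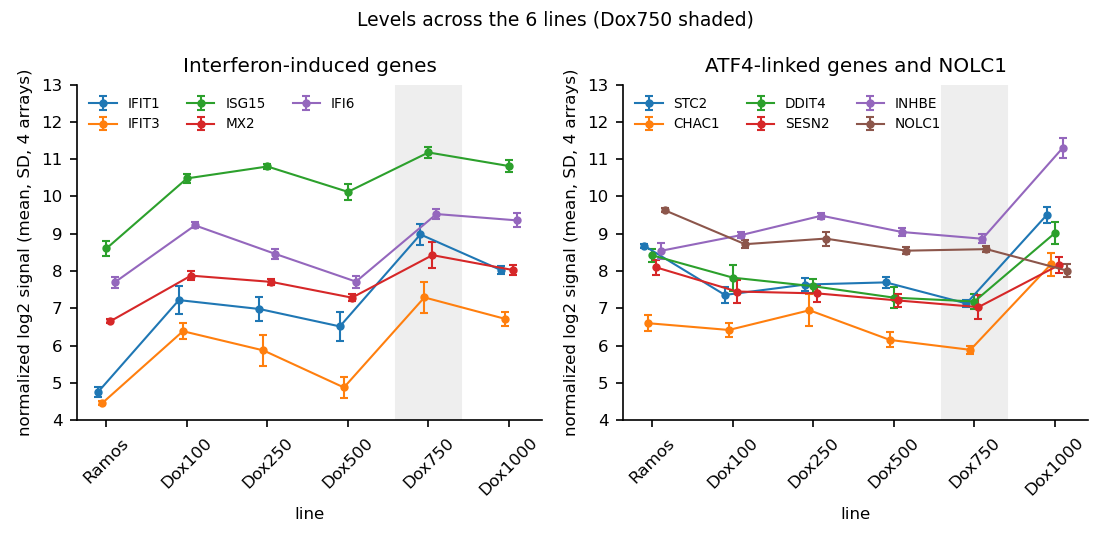
Mean normalized log2 signal with SD (4 arrays) in each of the 6 lines for 5 interferon-induced genes (left) and for 5 stress genes and NOLC1 (right), with Dox750 shaded. IFIT1 is higher in Dox750 (8.98) than in any other line, and STC2, CHAC1 and DDIT4 are lower in Dox750 than in Ramos and Dox1000.

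Few genes set Dox750 apart from every other line. Those that passed against all 5 lines in one direction numbered 7 higher (0.0765%) and 16 lower (0.175%). IFIT1 led the higher genes. Its means were 4.77 in Ramos, 7.22 in Dox100, 6.99 in Dox250, 6.52 in Dox500, 8.98 in Dox750 and 8.03 in Dox1000, and its smallest difference, from Dox1000, was 0.95 ± 0.19 (adjusted p = 0.00109). It passed under all 9 settings tried. IFIT3, ISG15 and MX2 were the other interferon-induced genes, with smallest differences of 0.57, 0.36 and 0.40. IFIT3 passed under 5 of 9 settings, and ISG15 and MX2 under 7. The co-stimulatory receptor CD28, KANK1 and FBXL13, which are not interferon genes by list, had smallest differences of 0.70, 0.54 and 0.42, and each passed under 5 of 9 settings. Of the 7, IFIT1 alone passed without Dox750 replicate 4, and IFIT1 and FBXL13 passed without replicate 1.

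Among the lower genes CDHR3 and ATG16L2 passed under all 9 settings. CDHR3, a cadherin that serves as a rhinovirus receptor in airway cells, was at 6.44, 6.66, 6.54 and 6.68 in Dox750 and at no less than 7.0 on any other array (smallest difference -0.61 ± 0.10, adjusted p = 0.00016). It lies on chromosome 7. ATG16L2, a relative of the autophagy gene ATG16L1, was at 7.22, 7.29, 7.31 and 7.36 in Dox750 and at 7.39 to 8.25 elsewhere (smallest difference -0.47). EPN2, an endocytic adaptor, and ZMAT3, an RNA-binding p53 target, passed under 8 of 9 settings, at -0.47 and -0.37. As the mean over its probes ZMAT3 did not pass (-0.12, highest adjusted p = 0.396). PEX6, of peroxisome import, had the largest of these smallest differences (-0.86 ± 0.23) but was spread between 4.77 and 6.02 in Dox750, where 1 of 4 arrays detected it. TDP1 was among the 16 (-0.39) and passed under 5 settings, but not as the mean over its probes (-0.07, highest adjusted p = 0.593).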

How the data were processed

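RNA of 24 cultures, 4 from each of 6 lines, was measured on Illumina bead arrays. The authors deposited a table of signal intensity per probe with its detection p-value, and a table of log2 values, which equals the log2 of the quantile-normalized intensities (24 of 24 columns). The submitters' processing notes name lumi. Raw intensities were corrected by normexp with an offset of 16, quantile-normalized and log2-transformed in limma 3.58.1 (R 4.3.3). Probes detected at p under 0.01 on 3 of 4 arrays of any line (15765) were fitted over all 24 arrays with a mean per line, with Benjamini-Hochberg adjustment. A gene was read from its brightest reported probe. For a gene undetected on all 4 arrays of a line, "at least" gives the fold over the detection edge. Probe symbols come from the platform annotation, updated through RefSeq. Called differences were adjusted p under 0.05 and, where stated, at least 2-fold. Named genes include the 12 highest and 12 lowest of those detected in both lines that passed at least 2-fold without overlap of arrays. The others include those switched on or off, up to 4 per list, those beyond every other line, and a few chosen after their values were seen. The members and lists were chosen with earlier results of these data known. Replicate numbers did not pair the cultures. The fit was tested on simulated data.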

Additional observations from a re-analysis of the deposited data

Results flagged for a closer look

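In 16 of 348 groups (174 named genes in each line) 1 culture lay apart from the other 3 of its line by Dixon's test at the 95% level. Chance gives this in about 1 of 20 groups, which is about the rate seen here. All values are normalized log2 signals. Among Ramos cultures, replicate 1 stood higher for NCALD (6.838, others 6.514 to 6.569), ABCG1 (8.741, others 8.56 to 8.574), MX2 (6.737, others 6.632 to 6.635) and ASNS (13.47, others 13.19 to 13.21). Ramos replicate 2 stood higher for ZNF775 (9.59, others 9.341 to 9.358) and lower for RHPN2 (7.965, others 8.339 to 8.407), CTSZ (7.982, others 8.395 to 8.461) and PEX6 (6.989, others 7.273 to 7.33). Ramos replicate 3 stood higher for IFI44, where no array detected it (5.56, others 5.161 to 5.217), and lower for MVP (5.531, others 5.927 to 5.994). Among Dox750 cultures, replicate 1 stood higher for ANXA2, which it alone detected (6.313, others 5.54 to 5.661), and lower for NOLC1 (8.482, others 8.614 to 8.64). Dox750 replicate 2 stood higher for ABCB9 (11.34, others 11.22 to 11.24) and for HENMT1, which was undetected (5.361, others 4.693 to 4.806). ALDH1A1 was lower in replicate 3 (8.896, others 9.111 to 9.149) and NLRP7 in replicate 4 (5.599, others 5.834 to 5.845). Of these genes, MVP lost its call when the culture was left out.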

How the results depend on the processing

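The number of genes past 2-fold moved most with background correction, the detection filter and the fold minimum. Against Ramos, 451 genes higher became 161 without background correction, also 161 with the deposited log2 values, 238 with only probes detected on all 8 arrays and 2464 without a fold minimum, and 398 lower became 139, 139, 244 and 2455. Against Dox500, 30 higher became 4, 4, 17 and 366 in the same order. The 1 lower gene became 4 without the detection filter, 369 without a fold minimum, and 0 without background correction, with the deposited values and under median scaling. Against Dox1000, 8 higher became 0, 0, 5 and 1104, and 4 under median scaling, while 52 lower became 16, 16 and 1070 (no background correction, deposited values, no fold minimum). In limma, the counts of 0 stand for genes short of 2-fold. Genes beyond every other line, 7 higher and 16 lower, became 14 and 29 without background correction and with the deposited values, 3 and 4 without the detection filter, 1 and 1 at an adjusted p under 0.01, and 31 lower with an intensity trend. Leaving out 1 array at a time gave 435 to 481 higher and 395 to 417 lower against Ramos, 26 to 34 and 1 to 2 against Dox500, 6 to 12 and 48 to 63 against Dox1000, and 1 to 7 and 9 to 21 beyond every line. With only probes detected on all 8 arrays, 15 interferon-stimulated and 5 class II genes rose. Under median scaling, which moved the median of all genes from -0.01 to -0.13, 6 oxidative phosphorylation genes rose and 8 ribosome biogenesis genes fell. Fitting the replicate number as a block, although the numbers did not pair the cultures (correlations of -0.0984 to 0.118), kept all 849 calls against Ramos and gave 8 higher and 23 lower beyond every line. Folds from dim signals shrank without background correction, for ABCB1 from 6.52 to 4.14 and for S100A4 from 6.01 to 4.36 on the log2 scale. No difference of a named gene changed sign where it had passed, but median scaling turned the list medians of anthracycline genes (to -0.04), ribosome biogenesis (-0.06), mitosis (-0.08), p53 targets (-0.05), the BCL2 family (-0.04), heat shock proteins (-0.11), oxidative phosphorylation (-0.01) and genes around ABCB1 (-0.12). The cause of these changes was not tested.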
